A study of Homo sapiens with 24 samples.

Results

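Integrins are cell surface receptors made of an alpha and a beta subunit, and the 10 subunit genes described here were read in MDA686TU cells, a head and neck squamous carcinoma line. They are the rows of the raw count table whose Ensembl identifier maps to ITGA2, ITGA3, ITGA5, ITGA6, ITGAV, ITGB1, ITGB4, ITGB5, ITGB6 or ITGB8. They make up 10 of the 26 integrin subunit genes and 10 of 60617 genes in the table. RNASeq was done in sextuplicate on 4 groups, which gave 24 libraries. The untreated control received neither agent. The EGCG group received 40 µM epigallocatechin gallate, the main catechin of green tea, the resveratrol group 15 µM resveratrol, a polyphenol of grapes, and the combination both agents at these doses. The 3 treatments lasted 24 h, and all groups share the same culture medium with serum. The resveratrol stock was in DMSO and EGCG was in water. Whether the control received DMSO is not given in the sources used here, so the solvent and resveratrol cannot be told apart. The data cover 1 cell line, 1 dose of each agent and 1 time, and nothing in the labels says that the 6 libraries of a group came from separate cultures, so p-values measure the spread between these libraries.

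In an integrin the alpha subunit largely sets which matrix protein is bound, and the beta subunit links the receptor through its cytoplasmic tail to talin, kindlin and the actin or keratin filaments. ITGB1 pairs with many alpha subunits, ITGB4 with ITGA6 alone, and ITGAV with several beta subunits. Basal squamous epithelium anchors itself to laminin through ITGA6 with ITGB4 in the hemidesmosome and through ITGA3 with ITGB1. The dimers of ITGAV with ITGB6 or ITGB8 are known for binding and activating latent TGF-beta, and the former is typical of wounded and malignant epithelium.

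Library totals ranged from 7034872 to 11735574 counts, and all 10 subunits were among the 15476 genes that passed the filter on low counts. The share of mitochondrial transcripts ran from 0.249% to 0.326% over replicates 1 to 3 of the 4 groups and from 0.448% to 0.775% over replicates 4 to 6, so the values of a subunit within each set of replicates are given beside the pooled one where a call on it was lost or gained in a set. The squamous epithelial markers were all present, with a summed normalized count of 135952 to 143831 in the control, 130644 to 147418 with EGCG, 114369 to 121461 with resveratrol and 112734 to 121476 in the combination. The single markers did not all follow the sum. By the limits given below, resveratrol gave 2 of the 8 higher and 4 lower, beside 28.9% and 28% of all genes. The combination gave 3 higher and 3 lower, beside 29.9% in each direction. Markers of other cell types were low, with sums of 3.86 to 15.7 for 6 blood cell genes and 5.64 to 20.9 for 4 endothelial genes. Of 6 fibroblast genes, COL1A1 and COL1A2 alone passed the filter, and the sum of the 6 was 1116 to 1349 in the control and 1525 to 1753 in the combination. The part of these marker levels in the results was not tested.

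The laminin receptor genes had the highest levels of the 10 in the control. On the FPKM scale, which is per gene length and so allows levels of different genes to be compared, ITGA6 stood at 240.1 ± 6.68 and ITGB4 at 217 ± 9.0 (SD, n = 6). The ranges of these first 2 genes overlapped, from 228 to 245 for ITGA6 and from 205 to 231 for ITGB4. Within single control libraries the ratio of ITGB4 to ITGA6 was 0.880 to 0.947, so ITGA6 was the higher in each on this scale. ITGA3, which forms the other epithelial laminin receptor, followed at 107 ± 2.54, and its partner ITGB1 at 60.5 ± 3.27. Lower came ITGAV at 27.0 ± 1.04 and ITGA2, the collagen receptor subunit, at 14.6 ± 0.626. The least abundant were ITGB5 at 10.6 ± 0.499, ITGB6 at 7.47 ± 0.426, the fibronectin receptor subunit ITGA5 at 5.35 ± 0.101, and ITGB8 at 0.891 ± 0.0847 FPKM. From ITGB4 downward no 2 neighbours overlapped. The gene lengths behind the deposited FPKM are not given in the sources used here. With exon lengths from GENCODE v44, on a scale of depth-scaled counts per exon kilobase, ITGB1 stood at 24.3 ± 1.27 and ITGAV at 11.2 ± 0.428, both far below their FPKM. ITGB1 kept its rank, ITGA2 ranked the fifth at 14.2 ± 0.624, and ITGAV ranked the sixth and overlapped ITGB5.

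**Figure D1:**
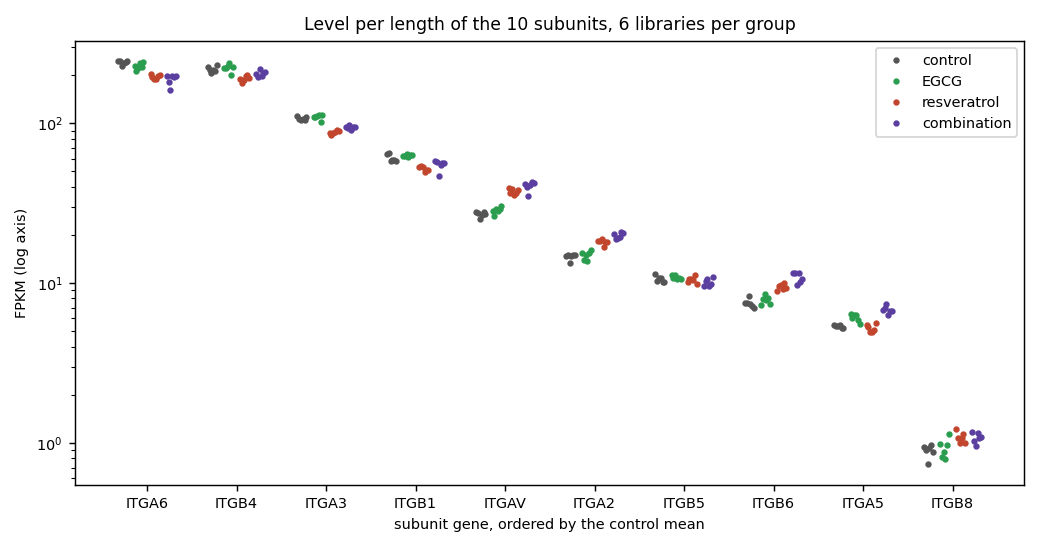
FPKM of the 10 subunit genes on a log axis, ordered by their control mean, with 1 point for each of 6 libraries in 4 groups. ITGA6 and ITGB4 lie highest, near 240.1 and 217 FPKM in the control, and ITGB8 lowest, at 0.891 FPKM.

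The order of the group means was the same with EGCG and with resveratrol. In the combination 6 of 10 genes kept their rank, because ITGB4 (204 ± 8.75 FPKM) stood above ITGA6 (189 ± 15.2) and ITGB6 (10.9 ± 0.827) above ITGB5 (10.2 ± 0.552). Those pairs overlapped, with 194 to 218 FPKM for ITGB4 and 161 to 199 for ITGA6, and with 9.66 to 11.6 for ITGB6 and 9.60 to 10.9 for ITGB5. Together the 10 genes took 0.487% ± 0.0135 of all counts in the control, 0.491% ± 0.0134 with EGCG, 0.457% ± 0.00712 with resveratrol and 0.475% ± 0.0113 in the combination.

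Resveratrol and the combination moved the subunits in both directions, and EGCG alone moved ITGA5. A gene was called differentially expressed, a DEG, where edgeR's quasi-likelihood test gave p under 0.05 and, after Benjamini-Hochberg correction over all genes tested, an adjusted p under 0.1. EGCG against the control gave 1 subunit, higher, where 1.76% of all genes tested were called and 0.905% were called higher. Resveratrol gave 8 of the 10, 4 higher and 4 lower, beside 56.9% of all genes (28.9% higher and 28% lower). The combination gave 9, 5 higher and 4 lower, beside 59.8% of all genes (29.9% in each direction). With calls this frequent over the whole table, these shares are not particular to the integrins. The median log2 fold change of the 10 was 0.047 for EGCG, -0.023 for resveratrol and 0.11 for the combination, and that of all genes tested 0.0009, 0.0037 and -0.0015. The changes were modest, and in the fit of all libraries no subunit reached 1.5-fold in any comparison. This limit falls close to ITGAV and ITGB6 in the combination: with library size as the only scaling their log2 changes were 0.67 and 0.62, past 1.5-fold, and ITGAV was at 0.63 in replicates 4 to 6 alone. In fits without 1 library ITGAV passed it without control replicate 1, 2, 4, 5 or 6, EGCG replicate 1, 2 or 4, or combination replicate 2 or 3, with 0.62 as the highest value, and ITGB6 passed it without control replicate 3. Over all genes 0.181% did so with EGCG, 9.78% with resveratrol, 11.9% with the combination, 0.452% between combination and resveratrol and 9.99% between combination and EGCG. Changes in the number of cells and in RNA per cell cannot be told apart in such bulk libraries. Across all genes, resveratrol raised 4466 and lowered 4341, and scaling by library size alone would give 6147 and 2857. The combination raised 4633 and lowered 4625 genes, against 6041 and 3311 with library size alone, which shifts the median of all genes by 0.083 on the log2 scale (0.088 for resveratrol). Under that scaling the falls of ITGB1 and ITGB4 with resveratrol were smaller, at -0.13 and -0.10, and so was that of ITGA3 in the combination, at -0.10, all still called.

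**Figure D2:**
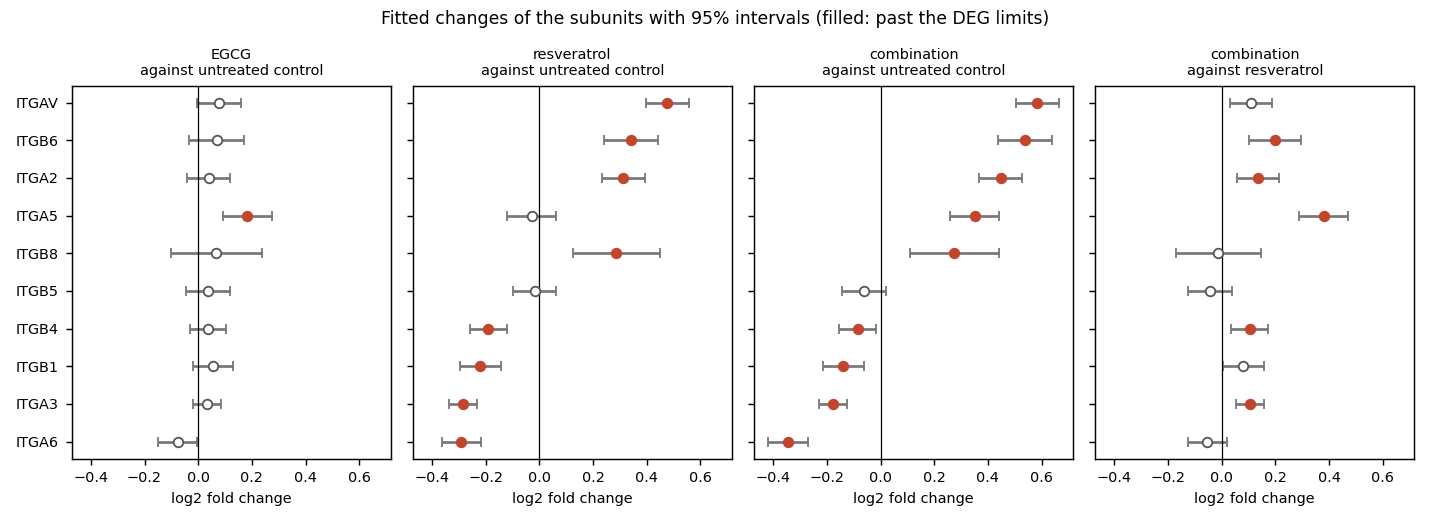
Fitted log2 fold changes (x axis) of the 10 subunits with 95% intervals in 4 comparisons, ordered by the change in the combination. Filled points passed the limits for DEGs, 1 of 10 with EGCG, 8 with resveratrol, 9 with the combination and 5 for the combination against resveratrol.

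ITGAV and ITGB6, the 2 subunits of the epithelial receptor that activates TGF-beta, had the 2 largest rises of the 10 genes in the combination. ITGAV lies at chr2:186590010-186680901 on the + strand (GRCh38, GENCODE v44). Its normalized counts had a lowest, median and highest value of 1809, 1951 and 2007 in the control, of 1871, 2057 and 2182 with EGCG, of 2533, 2679 and 2828 with resveratrol, and of 2519, 2961 and 3066 in the combination. The libraries treated with resveratrol, alone or combined, all lay above every control and EGCG library. ITGAV rose by 0.48 with resveratrol (SE 0.039, edgeR adjusted p = 1.25e-12) and by 0.58 with the combination (SE 0.039, adjusted p = 3.75e-15) on the log2 scale, the latter just under 1.5-fold. With EGCG its change was 0.08, with a 95% interval from -0.003 to 0.16 and an adjusted p of 0.509.

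ITGB6 lies at chr2:160099667-160200313 on the - strand. It had normalized counts of 354, 375 and 417 (lowest, median, highest) in the control, of 365, 397 and 429 with EGCG, of 450, 475 and 502 with resveratrol, and of 487, 557 and 586 in the combination. The control and EGCG libraries overlapped with each other and lay below all others. The rise was 0.34 with resveratrol (SE 0.049, edgeR adjusted p = 4.05e-07) and 0.54 with the combination (SE 0.049, adjusted p = 1.16e-11). ITGB8 (chr7:20330702-20415754, + strand), the other beta subunit that releases TGF-beta, was counted least, with 96.9, 121 and 129 in the control, 105, 122 and 149 with EGCG, 132, 142 and 160.5 with resveratrol, and 126, 143 and 154 in the combination. Its resveratrol libraries lay above the control, by 0.29 (SE 0.080, edgeR adjusted p = 0.00293), and the combination was 0.27 higher (SE 0.082, adjusted p = 0.00458) with ranges that overlapped. In replicates 4 to 6 alone the ITGB8 change with resveratrol was 0.21 with an adjusted p of 0.124 in edgeR, and in replicates 1 to 3 it was 0.38 with an adjusted p of 0.0129.

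ITGB5 (chr3:124761948-124901418, - strand), which pairs with ITGAV to bind vitronectin, was not called against the control under any treatment. Its normalized counts ran from 578 to 651 in the control, from 601 to 639 with EGCG, from 559.9 to 639.9 with resveratrol and from 546 to 620 in the combination. The fitted change in the combination was -0.06, with a 95% interval from -0.14 to 0.02 and an edgeR adjusted p of 0.208.

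The collagen and fibronectin receptor subunits rose in the combination. ITGA2 (chr5:52989340-53094779, + strand), which with ITGB1 binds collagen and laminin, had normalized counts of 919, 1021 and 1033 in the control, of 939, 1050 and 1114 with EGCG, of 1155, 1256 and 1291 with resveratrol, and of 1302, 1366 and 1446 in the combination. The resveratrol libraries all lay above control and EGCG, and the combination libraries above all the rest. ITGA2 rose by 0.31 with resveratrol (SE 0.039, edgeR adjusted p = 2.3e-08) and by 0.45 with the combination (SE 0.039, adjusted p = 4.57e-12).

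ITGA5 (chr12:54395261-54419266, - strand), the alpha subunit of the classical fibronectin receptor, was the subunit that EGCG raised. Its normalized counts were 337, 347 and 352 in the control, 357, 396 and 411 with EGCG, 318, 337 and 361 with resveratrol, and 407, 434 and 475 in the combination. The EGCG libraries lay above every control library, and 1.58% of all genes tested were separated without overlap in this comparison. The control and resveratrol libraries overlapped. The rise with EGCG was 0.18 (SE 0.045, edgeR adjusted p = 0.0279). The two-sided exact permutation p was 0.00216, the smallest that 6 libraries against 6 allow. Groups without overlap must give this value, so it adds nothing to the separation. In all 50 such tests were made on the subunits, and many gave the same p. Within replicates 1 to 3 the EGCG change of ITGA5 was 0.20 and within replicates 4 to 6 it was 0.16, with edgeR adjusted p of 0.325 and 0.607, so it was not called in either set alone. With resveratrol alone ITGA5 changed by -0.03 (95% interval -0.12 to 0.064, edgeR adjusted p = 0.615). The combination raised it by 0.35 (SE 0.045, adjusted p = 2.52e-08).

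**Figure D3:**
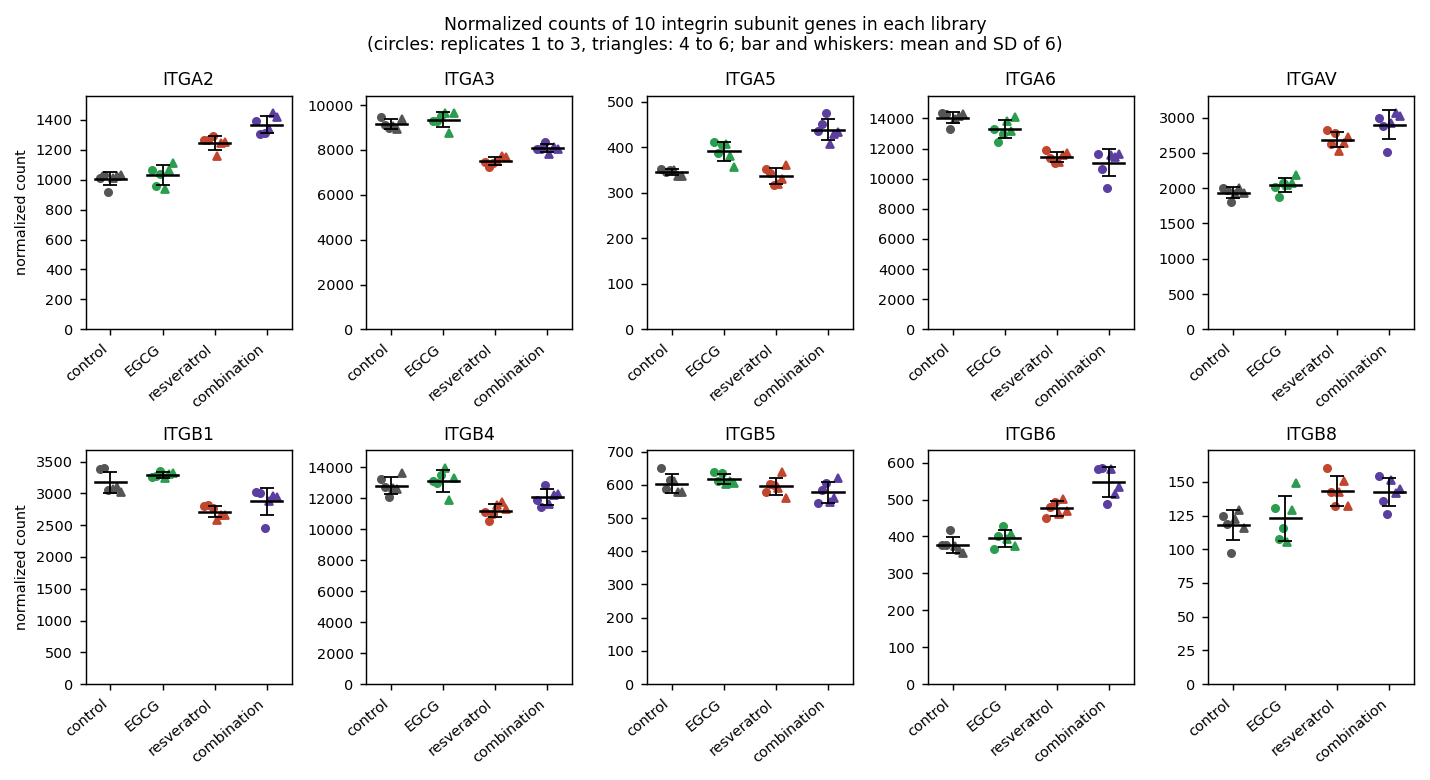
Normalized counts (y axis, from 0) of each subunit in every library of the 4 groups. Circles are replicates 1 to 3, triangles replicates 4 to 6, and bars with whiskers the mean and SD of 6 libraries. ITGAV, ITGB6 and ITGA2 are higher in all libraries that received resveratrol, ITGA6 and ITGA3 are lower in them, and ITGA5 is high with EGCG and in the combination.

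The laminin receptor genes fell with resveratrol. ITGA6 (chr2:172427354-172506459, + strand) had normalized counts of 13324, 14204 and 14371 in the control, of 12469, 13244 and 14110 with EGCG, of 11076, 11471 and 11914 with resveratrol, and of 9409, 11511 and 11633 in the combination. Every library with resveratrol lay below every control and EGCG library. On the log2 scale ITGA6 fell by 0.29 with resveratrol (SE 0.036, edgeR adjusted p = 1.9e-08) and by 0.34 with the combination (SE 0.036, adjusted p = 3.6e-10). The EGCG value was -0.08, with an adjusted p of 0.457 in edgeR.

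ITGA3 (chr17:50055968-50090481, + strand) had normalized counts of 8940, 9085 and 9455 in the control, of 8737, 9407 and 9649 with EGCG, of 7244, 7466 and 7723 with resveratrol, and of 7798, 8060 and 8360 in the combination. The resveratrol libraries were the lowest, the combination libraries came above them, and both lay below control and EGCG. ITGA3 fell by 0.28 with resveratrol (SE 0.026, edgeR adjusted p = 1.36e-11) and by 0.18 with the combination (SE 0.026, adjusted p = 2.86e-07).

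ITGB4 (chr17:75721328-75757818, + strand), the hemidesmosome subunit with a long tail that binds plectin, had normalized counts of 12098, 12693 and 13621 in the control, of 11866, 13238 and 13976 with EGCG, of 10550, 11190 and 11747 with resveratrol, and of 11439, 12074 and 12859 in the combination. The resveratrol libraries lay below the control, whereas those of the combination overlapped with it. The fall was 0.19 with resveratrol (SE 0.034, edgeR adjusted p = 1.14e-05) and 0.09 with the combination (SE 0.034, adjusted p = 0.0295). The combination call was lost without control replicate 1 (-0.06), 4 (-0.07) or 6 (-0.05), in replicates 1 to 3 alone (-0.05, against -0.11 in 4 to 6), and with library size as the only scaling, where edgeR gave an adjusted p of 0.95. ITGB4 shares its locus with GALK1 on the opposite strand, whose mean normalized count was 79.9 against 12304 for ITGB4, and ITGB8 with ITGB8-AS1, at 7.60 against 132. The strand setting of the counting is not given in the sources used here, so reads of such pairs cannot be told apart.

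ITGB1 (chr10:32887273-33005792, - strand), the common beta subunit, had normalized counts of 3022, 3089 and 3403 in the control, of 3246, 3281 and 3358 with EGCG, of 2584, 2719 and 2813 with resveratrol, and of 2453, 2947 and 3024 in the combination. Resveratrol libraries lay below all control and EGCG libraries, and in the combination the highest library just reached the control range. ITGB1 fell by 0.22 with resveratrol (SE 0.038, edgeR adjusted p = 6.7e-06) and by 0.14 with the combination (SE 0.038, adjusted p = 0.002). Replicates 1 to 3 gave a combination value of -0.20, and replicates 4 to 6 gave -0.07 (adjusted p = 0.133), and with library size alone it was -0.06 (edgeR adjusted p = 0.222). Without combination replicate 3 the combination value of ITGB1 was -0.10 and remained called (edgeR adjusted p = 0.00736). That library was the lowest of its group for ITGAV, ITGB1, ITGA6, ITGB6 and ITGB8, and the highest for ITGA3, ITGA5 and ITGB4. Counted over the 10 genes, 4 lay above and 4 below the control without overlap with resveratrol (31% of all genes were separated in either direction), and 4 above and 2 below with the combination (31.9%).

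Promoter windows of some members that moved together are shown so that their sequence can be compared, first for ITGAV, ITGB6 and ITGA2, which rose with resveratrol and the combination. Each is the 250 bases before the RefSeq start (GRCh38.p14), 5′ to 3′ on the strand of the gene, and 8 of the 10 members had an entry, all except ITGA3 and ITGB4. Capitals mark matches on either strand to the GC box GGGCGG, bound by SP1-type factors, the xenobiotic response core GCGTG of the aryl hydrocarbon receptor, the antioxidant response element TGACNNNGC of NRF2, the ATF4 element TGATGNAA, the AP-1 element TGANTCA and the TATA box TATAAA.
ITGAV promoter (chr2:186589806-186590055, + strand): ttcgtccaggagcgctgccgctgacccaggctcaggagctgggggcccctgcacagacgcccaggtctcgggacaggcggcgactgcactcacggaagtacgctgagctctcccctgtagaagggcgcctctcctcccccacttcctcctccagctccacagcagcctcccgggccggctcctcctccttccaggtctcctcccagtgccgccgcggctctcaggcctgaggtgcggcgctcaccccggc
ITGB6 promoter (chr2:160200273-160200522, - strand): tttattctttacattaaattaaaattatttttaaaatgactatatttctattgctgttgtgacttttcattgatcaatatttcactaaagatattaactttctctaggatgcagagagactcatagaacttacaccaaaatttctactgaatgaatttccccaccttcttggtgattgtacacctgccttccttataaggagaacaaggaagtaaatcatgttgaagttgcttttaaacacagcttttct
ITGA2 promoter (chr5:52989102-52989351, + strand): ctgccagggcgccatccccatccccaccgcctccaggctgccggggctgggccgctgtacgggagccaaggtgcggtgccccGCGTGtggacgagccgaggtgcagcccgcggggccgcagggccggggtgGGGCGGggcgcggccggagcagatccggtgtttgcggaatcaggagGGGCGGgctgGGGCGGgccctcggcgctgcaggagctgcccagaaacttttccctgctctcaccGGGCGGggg
The ITGAV and ITGB6 windows held no match to any of the 6 motifs, and they differ in composition, with 70.8% G and C in ITGAV and 30.0% in ITGB6. The ITGA2 window (76.4% G and C) held 4 GC boxes and 1 xenobiotic response core. The window of ITGB8, which also rose with both, is not printed and held 2 GC boxes and 2 xenobiotic response cores.

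The windows of ITGA6 and ITGB1, which fell, and of ITGA5, which EGCG raised, follow.
ITGA6 promoter (chr2:172427086-172427335, + strand): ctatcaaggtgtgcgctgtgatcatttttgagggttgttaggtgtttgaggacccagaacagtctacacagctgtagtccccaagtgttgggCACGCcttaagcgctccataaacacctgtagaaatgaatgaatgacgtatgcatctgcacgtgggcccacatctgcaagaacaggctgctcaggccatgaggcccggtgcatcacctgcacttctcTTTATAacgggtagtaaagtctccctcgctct
ITGB1 promoter (chr10:32958231-32958480, - strand): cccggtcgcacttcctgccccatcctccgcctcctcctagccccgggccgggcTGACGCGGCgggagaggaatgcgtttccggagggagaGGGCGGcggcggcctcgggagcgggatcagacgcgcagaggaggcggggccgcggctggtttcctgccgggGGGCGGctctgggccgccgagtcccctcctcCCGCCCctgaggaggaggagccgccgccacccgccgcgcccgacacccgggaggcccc
ITGA5 promoter (chr12:54419267-54419516, - strand): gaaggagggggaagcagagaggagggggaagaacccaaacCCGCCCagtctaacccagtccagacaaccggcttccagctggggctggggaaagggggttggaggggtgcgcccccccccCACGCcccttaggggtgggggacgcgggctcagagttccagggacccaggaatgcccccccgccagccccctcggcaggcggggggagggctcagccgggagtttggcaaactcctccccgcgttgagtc
ITGA6 held 1 xenobiotic response core and 1 match to the TATA box. That match reads TTTATA, with the motif on the strand opposite to the gene, and begins 32 bases before the RefSeq start. Unlike in the other windows, the bases just after this start were not found in a GENCODE v44 transcript of the gene. The window ends at 172427335, and GENCODE starts ITGA6 at 172427354. The ITGB1 window lies wholly inside the GENCODE gene, which begins at 33005792 on the - strand. Which start the cells use was not tested for any member. ITGB1 held 3 GC boxes and 1 antioxidant response element, and ITGA5 1 GC box and 1 xenobiotic response core. Over the 8 windows, 5 held a GC box, where 42.6% of 35116 RefSeq promoter windows of the same length did, and 4 a xenobiotic response core, against 32.2%. An antioxidant response element was in 2 (ITGB1 and ITGB5) against 10.9% of all, an ATF4 element in 1 (ITGB5) against 3.14%, a TATA box in 1 against 10.7%, and an AP-1 element in 0 against 6.57%. In none of the 6 windows shown did matches of different motifs overlap. A match is a run of letters only, and no binding was measured.

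Against resveratrol alone, the combination was higher for 5 subunits and lower for 0. This was 5 of 10 higher, where 4.01% of all genes were called higher and 7.86% in either direction. Of these 5, ITGB6 and ITGA2 had risen with resveratrol, ITGA3 and ITGB4 had fallen, and ITGA5 had not been called. ITGA5 differed most, by 0.38 (SE 0.045, edgeR adjusted p = 2.67e-07), and its combination libraries, from 407 normalized counts, all lay above the resveratrol libraries, which ended at 361. ITGB6 was 0.20 higher (SE 0.048, adjusted p = 0.00885), ITGA2 0.13 higher (SE 0.039, adjusted p = 0.0345) and ITGA3 0.10 higher (SE 0.026, adjusted p = 0.0108) in edgeR. ITGA2, ITGA3 and ITGA5 were separated without overlap, and 3.2% of all genes tested were. ITGB4 was called 0.10 higher (SE 0.034, edgeR adjusted p = 0.0635), and leaving out resveratrol replicate 1, 2 or 3 or combination replicate 3, 5 or 6 ended that call, with adjusted p of 0.114 to 0.179. ITGAV differed by 0.11 and was not called (95% interval 0.029 to 0.19, edgeR adjusted p = 0.107). Without combination replicate 3 its difference was 0.15 (adjusted p = 0.00748), without resveratrol replicate 1 it was 0.12 (adjusted p = 0.0827), and without EGCG replicate 6 it was 0.11 (adjusted p = 0.0959), each past the limits. ITGB1 differed by 0.08 (edgeR adjusted p = 0.246), and by 0.12 without combination replicate 3 (adjusted p = 0.0146). Within the 2 sets of replicates, ITGA5 alone was called in both, at 0.42 and 0.33. ITGB6 was called in neither, at 0.20 in replicates 1 to 3 and 0.19 in replicates 4 to 6 (edgeR adjusted p = 0.158 and 0.122). ITGA2 lost its call in replicates 1 to 3 (0.06, adjusted p = 0.588 in edgeR) and kept it in 4 to 6 (0.20). ITGA3 and ITGB4 kept theirs in replicates 1 to 3, both at 0.14, and lost them in 4 to 6, at 0.07 and 0.06 (edgeR adjusted p = 0.530 and 0.651). ITGAV and ITGB1 were called in replicates 4 to 6, at 0.19 and 0.15, and not in 1 to 3, at 0.02 and 0.0042.

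Against EGCG alone, the combination gave 5 subunits higher and 5 lower, beside 57.8% of all genes (28.7% higher and 29.1% lower). ITGAV (0.51), ITGB6 (0.47), ITGA2 (0.41), ITGB8 (0.21) and ITGA5 (0.17) were higher on the log2 scale. ITGA6 (-0.27), ITGA3 (-0.21), ITGB1 (-0.19), ITGB4 (-0.12) and ITGB5 (-0.10) were lower. With library size as the only scaling the calls of ITGB4 (-0.05, edgeR adjusted p = 0.225) and ITGB5 (-0.02, adjusted p = 0.705) ended, and ITGA3 and ITGB1 stayed called at -0.13 and -0.12. ITGB8 was called in neither set of replicates alone, at 0.24 in 1 to 3 and 0.19 in 4 to 6 (edgeR adjusted p = 0.121 and 0.173), nor was ITGB5, at -0.10 and -0.07 (adjusted p = 0.197 and 0.336). ITGA2, ITGAV and ITGB6 were separated above, and ITGA3, ITGA6 and ITGB1 below, where 27.5% of all genes did not overlap. The ITGB5 call had an edgeR adjusted p of 0.0446, and in 10 of 24 fits without 1 library it was lost, with values of -0.07 to -0.09 and adjusted p up to 0.203 (without EGCG replicate 1). These were the fits without control replicate 1, 3, 4, 5 or 6, EGCG replicate 1, 2 or 4, or combination replicate 1 or 4. This comparison shares its combination libraries with the others.

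The interaction of the agents asks whether the change with both differs from the sum of their changes on the log2 scale. It was called for 0 of 10 subunits in edgeR and 0 in DESeq2, beside 0.265% of all genes. At an unadjusted edgeR p under 0.05 there was 1, ITGA5, with an interaction of 0.20, a 95% interval from 0.068 to 0.33 and an adjusted p of 0.325. The next were ITGA3 at 0.07 (95% interval -0.002 to 0.15) and ITGB6 at 0.13 (95% interval -0.011 to 0.27).

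Because integrins reach the surface as pairs, the ratio of partner genes was taken within each library, which does not depend on how libraries are scaled. The level of such a ratio rests on the gene lengths behind the FPKM, which for ITGB1 and ITGAV differ most from GENCODE, whereas the comparison of a ratio between groups does not. These 9 ratios are descriptions without a test. The ratio of ITGAV to ITGB1 in FPKM was 0.424, 0.445 and 0.471 (lowest, median, highest) in the control, 0.419, 0.456 and 0.480 with EGCG, 0.684, 0.728 and 0.750 with resveratrol and 0.701, 0.746 and 0.759 in the combination. It thus separated the libraries with resveratrol from those without, and its mean was 1.62 times the control value with resveratrol and 1.65 times with the combination. ITGA2 to ITGB1 went the same way, with means of 0.242, 0.238, 0.349 and 0.364 in the order control, EGCG, resveratrol, combination, and no overlap of the last 2 groups with the first 2. The ratio of ITGA5 to ITGB1 had medians of 0.0896, 0.0973, 0.101 and 0.119. In the combination it lay above all other groups, with 0.115 as its lowest and 0.158, in replicate 3, as its highest value.

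Among the beta partners of ITGAV, the ratio to ITGAV overlapped in all groups for ITGB6. It was lower in the combination than in the control for ITGB5 and ITGB8. ITGB6 to ITGAV was 0.277 ± 0.0258 in the control, 0.275 ± 0.0223 with EGCG, 0.252 ± 0.0153 with resveratrol and 0.269 ± 0.0198 in the combination, and all groups overlapped. ITGB5 to ITGAV was 0.393 ± 0.0245 in the control, 0.382 ± 0.0221 with EGCG, 0.280 ± 0.0198 with resveratrol and 0.252 ± 0.0278 in the combination, without overlap between groups with and without resveratrol. ITGB8 to ITGAV was 0.0329 ± 0.00214 in the control and 0.0267 ± 0.00128 in the combination, also without overlap. With EGCG it was 0.0325 ± 0.00335 and with resveratrol 0.0289 ± 0.00235, and both of these groups overlapped with the control and with the combination.

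The pairs of the laminin receptors differed. ITGA3 to ITGB1 overlapped between all groups, at 1.77 ± 0.0888 in the control, 1.74 ± 0.0656 with EGCG, 1.70 ± 0.0906 with resveratrol and 1.73 ± 0.177 in the combination. ITGA6 to ITGB1 was 3.77, 3.99 and 4.23 in the control and 3.19, 3.46 and 3.59 in the combination, which did not overlap. EGCG (3.42, 3.62 and 3.82) and resveratrol (3.57, 3.84 and 3.96) had medians in between and overlapped both. ITGB4 to ITGA6 was 0.880, 0.902 and 0.947 in the control and 0.997, 1.05 and 1.36 in the combination, again apart, with the highest value in replicate 3. The EGCG libraries (0.893, 0.991 and 1.03) and resveratrol libraries (0.919, 0.969 and 1.03) overlapped both here too.

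**Figure D4:**
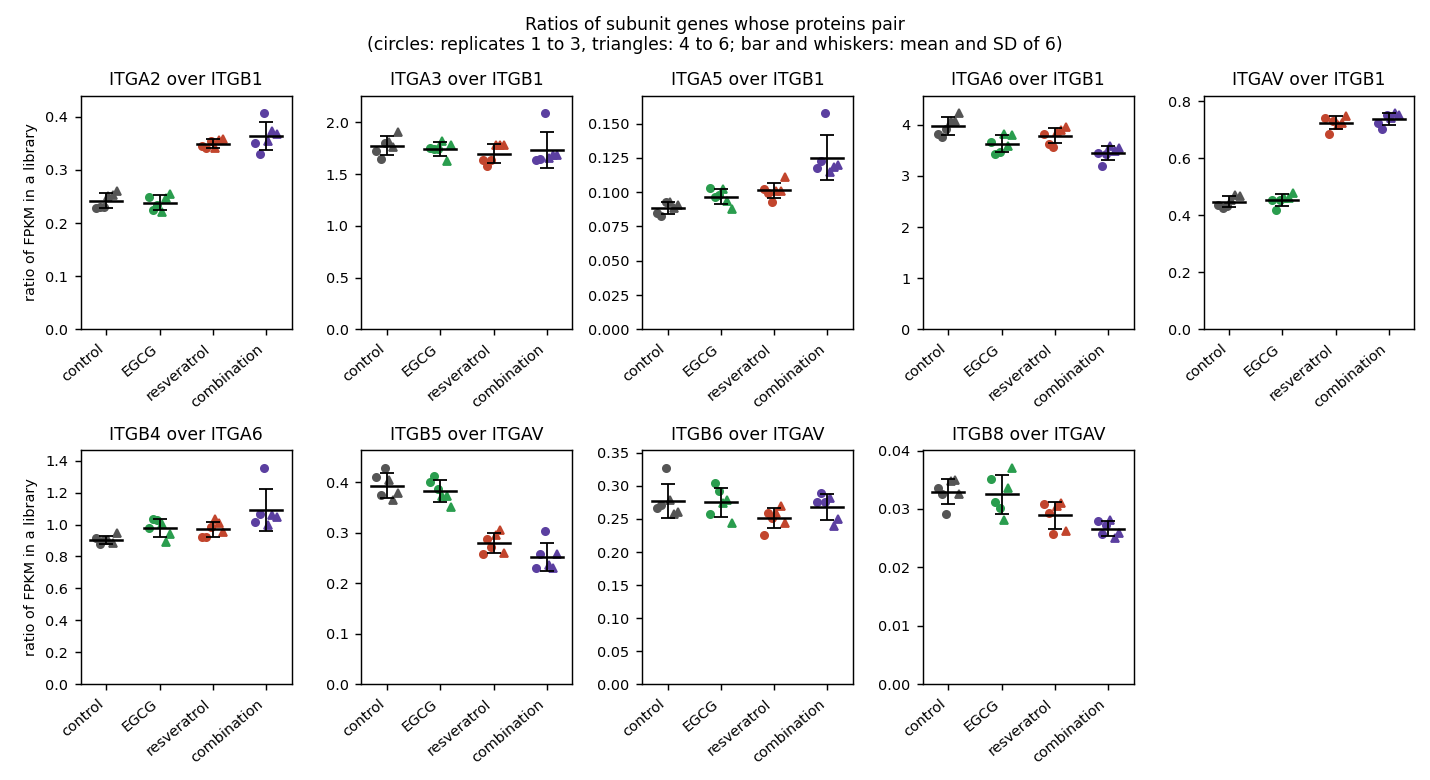
Ratios of FPKM of 9 partner pairs in every library (y axis from 0), with mean and SD of 6 libraries as bars and whiskers and replicates 1 to 3 and 4 to 6 as circles and triangles. ITGAV over ITGB1 rises from a control mean of 0.448 to 0.725 with resveratrol and 0.738 in the combination, ITGB5 over ITGAV falls, and ITGB6 over ITGAV and ITGA3 over ITGB1 overlap in all groups.

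Of the other 16 integrin subunit genes, 3 passed the filter and 13 did not. ITGB2, the beta subunit of leukocyte integrins, had normalized counts of 107 ± 8.83 in the control, 107 ± 9.92 with EGCG, 144 ± 14.6 with resveratrol and 162 ± 12.6 in the combination (SD, n = 6), a rise of 0.43 with resveratrol (edgeR adjusted p = 1.81e-05) and 0.60 with the combination (adjusted p = 4.02e-08). ITGA1, a collagen receptor subunit, stood at 26.9 ± 4.08 in the control, 24.6 ± 4.61 with EGCG, 44.5 ± 6.73 with resveratrol and 43.6 ± 8.76 in the combination, a rise of 0.73 (edgeR adjusted p = 6.7e-05) and 0.68 (adjusted p = 0.000174). ITGAE, which binds E-cadherin, had 203 ± 26.4 in the control and 201 ± 8.02 in the combination, and its change of -0.01 was not called (edgeR adjusted p = 0.893). The remaining 13 had at most 15 raw counts in a library, and ITGA8 and ITGAD were at 0 in all 24.

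Genes of the matrix that integrins bind moved in both directions. Of 16 laminin, collagen and nephronectin genes, 15 were tested, and the combination raised 9 and lowered 2, with a median log2 fold change of 0.27. LAMB2, a laminin beta chain, rose by 1.00 (SE 0.064, edgeR adjusted p = 9.15e-16), from 330 ± 30.1 to 656 ± 57.0 normalized counts. NPNT, a matrix protein of basement membranes, rose by 0.82 (SE 0.055, adjusted p = 3.32e-15 in edgeR). COL1A1, a chain of collagen I, fell by 0.27 with EGCG (edgeR adjusted p = 0.00215), rose by 0.29 with resveratrol (adjusted p = 7.96e-06) and rose by 0.48 with the combination (adjusted p = 2.91e-10). For resveratrol alone the list gave 6 higher and 3 lower with a median of 0.20, and for EGCG 0 higher and 1 lower. Of all genes, the combination raised 29.9% and lowered 29.9%, and resveratrol raised 28.9% and lowered 28%. With EGCG 1.76% of all genes were called in either direction.

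Among 16 ligands with an RGD sequence or of the TGF-beta system, 13 were tested, and the combination raised 7 and lowered 3, with a median of 0.18. THBS1, thrombospondin, the most abundant of those named, fell by 0.74 (SE 0.031, edgeR adjusted p = 3.9e-21), from 23981 ± 1157 to 14352 ± 750.4 normalized counts. MFGE8, which bridges apoptotic cells to ITGAV dimers, rose by 0.95 (SE 0.084, edgeR adjusted p = 4.13e-12), and FBN1, the fibrillin to which latent TGF-beta is tethered, by 1.04 (SE 0.10, adjusted p = 7.5e-11). SPP1, osteopontin, rose by 2.79 (SE 0.28, edgeR adjusted p = 9.53e-11) at a very low level, from 2.63 ± 1.42 to 18.7 ± 3.69 normalized counts. Resveratrol alone raised 4 and lowered 4 of the list in edgeR, beside 28.9% and 28% of all genes. EGCG changed 0, beside 1.76% of all genes. In the interaction test 2 of these 13 were called, beside 0.265% of all genes, FN1 at 0.28 and TNC at 0.24 (edgeR adjusted p = 0.00958 and 0.0756), both named here after their values were seen. FN1 encodes fibronectin, the ligand of ITGA5 with ITGB1, and its change was -0.27 with resveratrol and -0.06 with the combination (edgeR adjusted p = 2.55e-07 and 0.228).

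Inside the cell, 31 genes of integrin regulators and the adhesion plaque were all tested, and the combination raised 8 and lowered 11, with a median of -0.064. ACTN1, an alpha-actinin that crosslinks actin at adhesions, fell by 0.25 (SE 0.029, edgeR adjusted p = 2.53e-09). ITGB1BP1, a binder of the ITGB1 tail, fell by 0.36 (SE 0.042, adjusted p = 3.51e-09 in edgeR), FERMT1, the epithelial kindlin, by 0.30 (SE 0.035, adjusted p = 5.82e-09), and RSU1, a partner of the PINCH adaptor, by 0.38 (SE 0.055, adjusted p = 4.15e-07).

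Most partners of ITGB4 in the hemidesmosome were lower. Of 6 genes the combination lowered 4 and raised 1, with a median of -0.27, and resveratrol gave the same counts with a median of -0.26. KRT5 and KRT14, the basal keratins, fell by 0.37 (SE 0.030, edgeR adjusted p = 4.77e-13) and 0.34 (SE 0.028, adjusted p = 1.03e-12), and they are also members of the squamous marker list. COL17A1, the transmembrane collagen of the hemidesmosome, fell by 0.20 (SE 0.025, edgeR adjusted p = 2.66e-08). Among 17 membrane partners and genes of integrin traffic, 16 were tested, with 9 higher, 4 lower and a median of 0.10 in the combination. DAB2, an endocytic adaptor of integrins, rose by 1.03 (SE 0.072, edgeR adjusted p = 1.07e-14). CAV1, caveolin, fell by 0.50 (SE 0.037, adjusted p = 2.84e-14 in edgeR), and SLC3A2, the heavy chain that associates with beta subunits, by 0.35 (SE 0.028, adjusted p = 2.98e-13). The combination counts of these lists stand beside 29.9% of all genes called higher and 29.9% lower. With resveratrol alone the adhesion plaque list gave 6 higher and 15 lower, and the membrane and traffic list 8 higher and 4 lower. The resveratrol counts stand beside 28.9% of all genes higher and 28% lower. No test of a list against other genes was made.

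**Figure D5:**
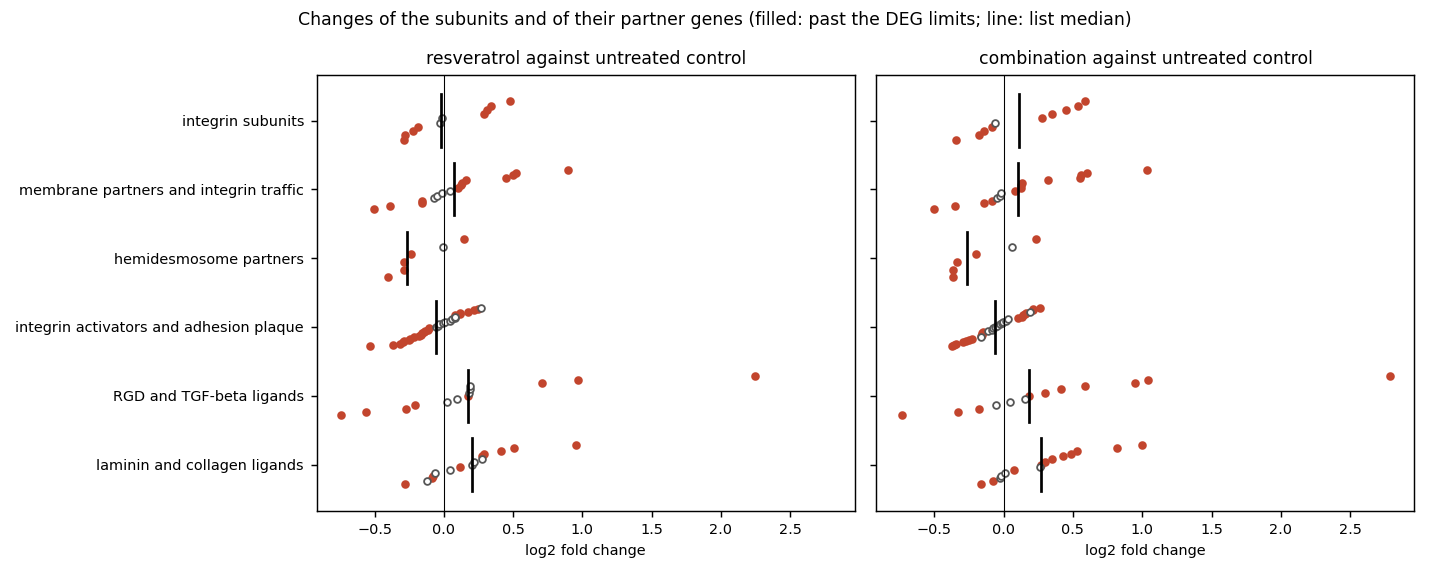
Log2 fold changes (x axis) of the 10 subunits and of 5 lists of partner genes with resveratrol and with the combination, 1 point for each gene tested, filled where it passed the limits for DEGs, and a line at the median. The hemidesmosome list has medians of -0.26 and -0.27, the laminin and collagen list of 0.20 and 0.27.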

How the data were processed

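RNA was extracted with the RNeasy kit and sequenced as paired reads from TruSeq stranded mRNA libraries. The submitters' processing notes name bcl2fastq 2.17.1.14, Trimmomatic 0.36, FastQC 0.11.5, HISAT2 2.0.4, SAMtools 1.3.1, DESeq2 1.20.0 and the build GRCh38. The annotation and strand setting of the counting are not given in the sources used here. Deposited by the authors were unnormalized whole-number counts, a normalized signal (normalized counts) and FPKM. In each library the ratio of the first to the second was constant, and in each gene that of the second to FPKM.

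Of 60617 genes, 33693 were counted in some library and filterByExpr kept 15476. The 24 libraries entered 1 fit of edgeR 4.0.16 on R 4.3.3 (TMM, quasi-likelihood test, biological coefficient of variation 5.32%), with Benjamini-Hochberg adjustment over all genes tested. Normalized counts are used for levels of a gene across groups, FPKM for levels between genes and for ratios. A two-sided exact permutation test on mean log2 CPM (prior count 2, 924 arrangements) was added for the subunits. On simulated data for the combination against the control, 192 of 200 changed genes were called and 15 unchanged ones, among 15476. In the real libraries 9258 genes were called in this comparison, and recovery with that many changed genes was not tested. Recovery at the sizes of the subunit changes is not reported here. Replicates differed by more than counting noise (chi-square per degree of freedom 1.25 to 6.67, the highest between resveratrol replicates 3 and 4). Combination replicate 3 gave 4.42 to 6.12 against the other libraries of its group, which gave 1.25 to 3.93 among themselves.

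The members and lists were chosen with earlier results of these data known. Named were the 10 subunits, other integrins that passed the filter and, of each list, the 3 called genes with the smallest p and the 1 with the largest change in the combination. Alternatives were DESeq2 1.42.0, other scalings and filters, stricter limits, fits of only the groups compared, a replicate block, sets of replicates and leaving out each library. Symbols and coordinates come from GENCODE v44, promoter sequences from RefSeq. Subunit protein sequences were not used here. Interaction results of the laminin and collagen list are not reported here.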

Additional observations from a re-analysis of the deposited data

Results flagged for a closer look

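Each subunit was examined in each group for a library whose gap to the nearest other passed Dixon's limit, a share of the range of its 6 libraries that chance passes in about 1 of 20 groups. Of 40 groups, 5 did so. For ITGA2, control replicate 3 was lowest at 919 normalized counts (next 1010.0) and resveratrol replicate 4 lowest at 1155 (next 1244). For ITGB6, control replicate 3 was highest at 417 (next 376). Combination replicate 3 was lowest for ITGAV at 2519 (next 2875) and for ITGB1 at 2453 (next 2885). Without that library the combination against the control gave 0.62 for ITGAV and -0.10 for ITGB1 on the log2 scale, and both remained called. Why these libraries stand apart was not tested.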

How the results depend on the processing

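The cause of the changes listed here was not tested. With calls limited to 1.5-fold or more, the subunits called numbered 0 with EGCG, 0 with resveratrol, 0 with the combination and 0 for the combination against resveratrol or against EGCG. In replicates 1 to 3 alone EGCG gave 0 and the combination against resveratrol 3, and in replicates 4 to 6 alone EGCG gave 0. In fits that each left out 1 library the counts were 1 to 1 for EGCG, 8 to 8 for resveratrol, 8 to 9 for the combination, 4 to 6 for the combination against resveratrol, 9 to 10 for the combination against EGCG and 0 to 0 for the interaction. No called subunit changed sign under any alternative. Libraries of the same replicate number in different groups were weakly alike, and the main fit has no term for this. Over 36 same-numbered pairs the deviations correlated with a median r of 0.049 and a lowest of -0.011, and 2 pairs were over 0.1. The median r was 0.028 for pairs of other numbers within a set of replicates and -0.041 for pairs across the sets. Of 24 libraries, 14 correlated best with one of their own number. With a replicate block the subunit counts were 1 for EGCG, 8 for resveratrol, 9 for the combination, 6 and 10 for the combination against resveratrol and EGCG, and 0 for the interaction, the only change being ITGAV in the combination against resveratrol (0.11, edgeR adjusted p = 0.0479), and over all genes the block moved EGCG calls from 273 to 370 and interaction calls from 41 to 85. A filter of at least 10 counts in every library ended the ITGB4 call of the combination (-0.06, adjusted p = 0.118) and the ITGB5 call against EGCG (-0.07, adjusted p = 0.143), and a limit of 0.05 on the adjusted p ended the ITGB4 call against resveratrol. Over all genes, the calls for EGCG, the combination against resveratrol and the interaction went from 273, 1217 and 41 to 91, 785 and 6 in replicates 1 to 3 and to 85, 399 and 24 in replicates 4 to 6, sets with fewer libraries. The stricter adjusted p left 803 of 1217 calls against resveratrol, testing every gene with a count gave 92 interaction calls, and a term for the sets of replicates gave 79. At 1.5-fold, 28 of 273 calls were left for EGCG, 1514 of 8807 for resveratrol, 1842 of 9258 for the combination, 70 of 1217 and 1546 of 8950 for the combination against resveratrol and EGCG, and 4 of 41 for the interaction. The protein sequence comparison that was planned was not run. The libraries hold 7034872 to 11735574 counts, which limits ITGB8, with 96.9 to 160.5 normalized counts, more than the other subunits.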
